A study of Mus musculus with 2 samples.

Results

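The enzymes that oxidise choline and hand its methyl groups to the methionine cycle were measured in liver RNA of mice lacking Pnpla8 and of wild-type mice. The group held 10 genes, taken by gene name from the array files: Chdh, Aldh7a1, Bhmt, Bhmt2, Dmgdh, Sardh, Mat1a, Gnmt, Ahcy and Gamt. They were represented by 17 of the 39429 probes on the array, and all 10 were among the 19935 genes measured on both arrays. Measured means that at least 1 probe of the gene was well above background on both arrays by the scanner software's mark.

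There were 2 samples, a WT liver pool and a Pnpla8-/- liver pool, both of strain C57BL/6N and each hybridised to 1 single-colour Agilent array. Pnpla8 encodes a calcium-independent phospholipase A2 that releases fatty acids from membrane phospholipids. No treatment is given for either group. Equal amounts of liver RNA from 5 animals were pooled for each array by the series' design text, which gives an age of 8 weeks where the sample labels give 6 weeks, and no source used here states how the allele was made or the sex of the animals. Since each group was 1 array, no difference had a replicate check and no test across samples was made. Genotype, pool and array position cannot be told apart. Differences are given as ratios of the knockout pool over the wild-type pool, described by fixed sizes of 1.5-fold and 2-fold.

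Choline is oxidised in liver mitochondria to betaine, which carries the same methyl groups. Betaine gives a methyl group to homocysteine and so remakes methionine, and the dimethylglycine left over is stripped of its remaining methyl groups on the way to glycine. Methionine is activated to S-adenosylmethionine, the donor for most cellular methylations, and the S-adenosylhomocysteine that each transfer leaves behind is hydrolysed back to homocysteine. The title of the series places the arrays in a study of whether choline released from phosphatidylcholine feeds this cycle.

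Of 43020 non-control spots, the scanner software marked 70.1% as well above background for the WT pool and 65.6% for the knockout pool, and none as saturated. Each array was scaled by its 75th percentile of processed signal (1207 for WT, 1018 for the knockout). The Pnpla8 probe read 144 in the WT pool and 4.45 in the knockout pool, where it was below detection. Against the lowest detected knockout signal this was at least 6.81-fold lower. The deleted stretch of the gene is unknown here, so the probe may lie outside it and does not settle the genotype. For technical scale, a ratio had a median SD of 0.04 (log2) between the spots of a probe spotted 10 times (280 probes) and of 0.10 between different probes of a gene (4286 genes). The scanner software's own error for a member ratio was 0.20 to 0.23. None of these covers the spread between animals or pools.

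For 9 of the 10 genes the ratio was above 0, toward the knockout pool, under the reported processing and all 14 alternatives. Chdh was the exception, since its sign changed with the scaling. Most genes measured on both arrays also lay above 0 as reported. Without scaling most lay below 0, since the median of all genes was then -0.21. The median log2 ratio of the 10 genes was 0.68, a 1.60-fold difference, where the median of all measured genes was 0.04. Of the 10 genes, 6 were at least 1.5-fold higher in the knockout pool: Bhmt, Ahcy, Gnmt, Sardh, Mat1a and Dmgdh. The background for that size was 4.41% of all genes. Bhmt was the single member at 2-fold or more, against 1.29% of all genes. No member was 1.5-fold or 2-fold lower, sizes that 5.93% and 1.85% of all genes reached. Without scaling 3 members were at least 1.5-fold higher, and with quantile scaling 4. Bhmt fell short of 2-fold under 6 alternatives. The split of all genes moved with the scale as well: at 2-fold 0.577% were higher and 3.80% lower without scaling, and 0.692% and 3.05% with spike-in scaling. All 10 members exceeded the median of all genes, which divides the genes equally by construction. Chdh lay closest to it and fell below it without a filter on dim probes and by its brightest probe.

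**Figure D1:**
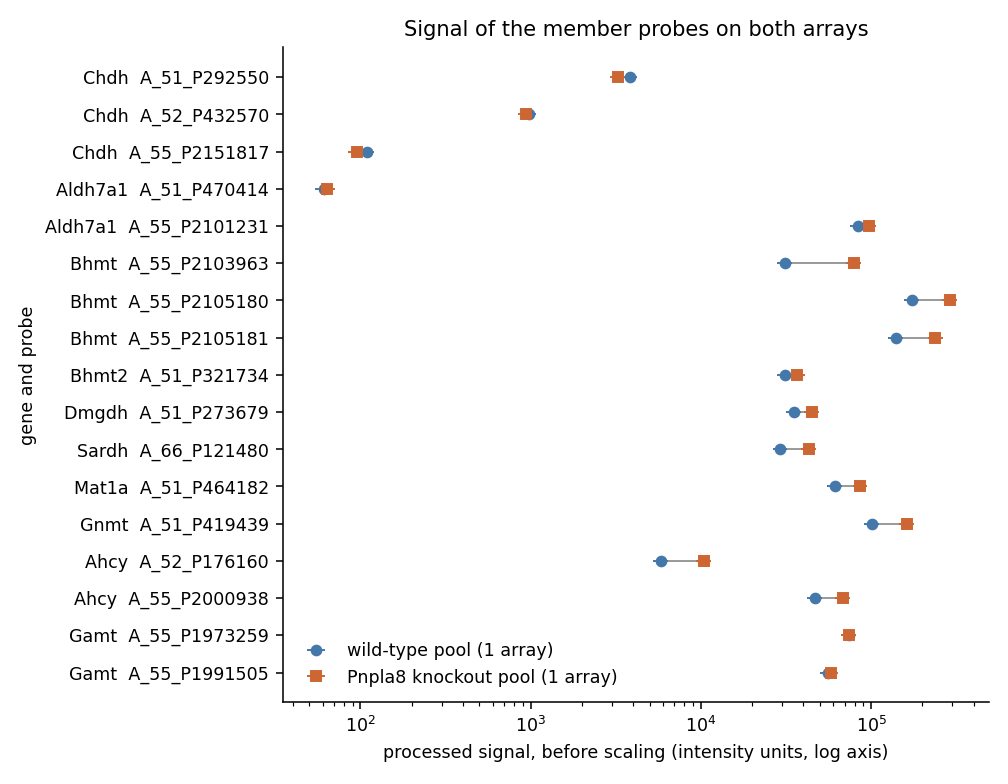
Processed signal (intensity units, log axis, before scaling between arrays) of each of the 17 member probes in the wild-type pool (circles) and the knockout pool (squares), with the scanner software's error as bars and 1 array per group. The knockout signal is the higher for 14 of 17 probes, and the 3 Chdh probes are the exceptions.

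Before any scaling, the knockout array read higher for 14 of the 17 probes, although its overall signal was the lower of the pair. The median log2 ratio of all genes was then -0.21. Both Gamt probes (1.01-fold and 1.04-fold) and 1 Aldh7a1 probe (1.04-fold) were higher by less than the software's error. After scaling all 17 lay above 0, 9 of them by 1.5-fold or more and 3 by 2-fold or more. The median of all genes was also above 0, at 0.04, and 4.41% and 1.29% of all genes reached these sizes. These are shares of genes, and the shares over all probes were not worked out. Probes of the same gene are not separate findings, and the 3 past 2-fold belong to Bhmt and Ahcy alone. All 17 probes were well above background on both arrays and none was saturated. The order of the genes by ratio was Bhmt, Ahcy, Gnmt, Sardh, Mat1a, Dmgdh, Bhmt2, Aldh7a1, Gamt and Chdh. The place of Ahcy rests on its probe on chromosome 16: without that probe, or by the brightest probe, its 0.79 is below Gnmt (0.93) and Sardh (0.80). Each neighbouring pair in that order differed by less than the software's error of 0.20 or more for a single ratio, except Gamt and Chdh.

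The first oxidation, choline to betaine aldehyde, is carried out by choline dehydrogenase, Chdh, a flavoprotein of the inner mitochondrial membrane. Its probe A_51_P292550 read 3816 in the wild-type pool and 3263 in the knockout pool. Probe A_52_P432570 read 984 and 937, and probe A_55_P2151817 read 109 and 95.4. After scaling the log2 ratios were 0.02, 0.18 and 0.05, so all 3 probes lay near the median of all genes, and the gene's ratio of 0.05 stood at percentile 51.5 of all measured genes. Without scaling the gene's ratio was -0.20 and with the spike-in controls as the scale -0.11, so no direction is given for Chdh. The probes map to chromosome 14 in mm9, the build named in the array files. The A_55_P2151817 probe, at chr14:30849978-30850037 (plus strand), is shown because its ratio is the middle value that stands for the gene.
Chdh A_55_P2151817: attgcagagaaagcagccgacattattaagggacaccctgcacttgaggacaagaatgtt

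The second oxidation, betaine aldehyde to betaine, is assigned to the aldehyde dehydrogenase Aldh7a1, which also degrades a lysine breakdown product. Its probe A_55_P2101231 read 83941 in the WT pool and 96913 in the knockout, a log2 ratio of 0.45. Its other probe, A_51_P470414, read 60.9 and 63.6, a ratio of 0.31. The gene's ratio was 0.38, or 1.30-fold, at percentile 89.7 of all genes. Both probes were higher in the knockout pool, and neither reached 1.5-fold.

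**Figure D2:**
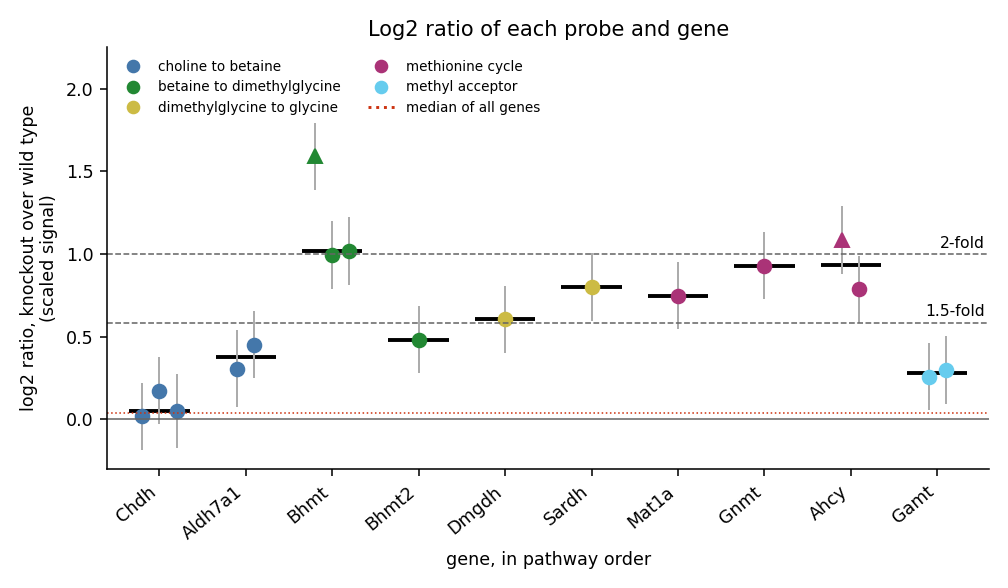
Log2 ratio of scaled signal, knockout over wild type, for each probe (points, with the scanner software's error as bars) and each gene (black lines, the median over its probes), with genes in pathway order and coloured by role. Triangles are the Bhmt and Ahcy probes that the array files place on another chromosome than the gene, and the dotted line is the median of all genes. Bhmt is highest at 1.02 and Chdh lowest at 0.05.

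The transfer of a methyl group from betaine to homocysteine is catalysed by betaine-homocysteine methyltransferase, Bhmt, among the most abundant soluble enzymes of liver. Probe A_55_P2105180 read 172699.8 in the WT pool and 290273 in the knockout. Probe A_55_P2105181 read 139511 and 238689.6, and probe A_55_P2103963 read 31058 and 78953. All 3 probes were higher in the knockout pool even before scaling, by 1.68-fold, 1.71-fold and 2.54-fold. After scaling they were 1.99-fold, 2.03-fold and 3.01-fold higher. The gene's log2 ratio was 1.02, or 2.03-fold, with an SD of 0.34 over its 3 probes, and 240 of the 19935 genes had a higher ratio. Of the 14 alternative ways of processing, 8 kept Bhmt at 2-fold or more and 6 left it short, with values from 0.77 to 1.20. It therefore sits at the 2-fold line and above the 1.5-fold line, which it passed under all 14.

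The probe with the largest Bhmt ratio is placed by the array files at chr4:26296131-26296190 in mm9, while the other 2 lie at chr13:94386856-94386915 and chr13:94386981-94387040 on the minus strand. RefSeq lists a pseudogene, Bhmt-ps1, on chromosome 4. The sequence is printed because it carries the highest ratio of the group. It reads open in its first frame up to the final codon, a stop, in capitals, so its letters have the form of the end of a coding sequence. Whether Bhmt-ps1 transcripts bind it was not tested, and without it the Bhmt ratio was 1.01.
Bhmt A_55_P2103963: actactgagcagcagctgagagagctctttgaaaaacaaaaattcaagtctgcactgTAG

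A further probe, A_55_P2103969, bears a transcript identifier instead of a gene name and is annotated in the array files as a liver tumour cDNA clone of the Bhmt product. It is no member by the naming rule and was singled out after its values were seen. It starts 8241 bases from the start of probe A_55_P2105180 in mm9, at chr13:94395097-94395156. Its signal was 165 in the WT pool and 522 in the knockout, a 3.74-fold difference.

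Bhmt2, the neighbouring paralog, methylates homocysteine from S-methylmethionine instead of betaine. Its single probe, A_51_P321734 at chr13:94426379-94426438, read 31323 in the WT pool and 36929.8 in the knockout. The log2 ratio was 0.48, or 1.40-fold, at percentile 93.6. No alternative brought it to 1.5-fold. No run of more than 12 bases was shared between probes of different member genes, on either strand. Probes were compared with each other and not with transcripts, and the Bhmt probes share at most 7 bases among themselves. Whether the Bhmt2 probe also reads Bhmt RNA was therefore not tested.

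Dimethylglycine dehydrogenase, Dmgdh, and sarcosine dehydrogenase, Sardh, remove the next methyl groups in mitochondria, and pass electrons to the electron transfer flavoprotein. The Dmgdh probe A_51_P273679, at chr13:94522517-94522576, read 35035 in the WT pool and 44974 in the knockout. The log2 ratio was 0.61, or 1.52-fold, just past the 1.5-fold line, which it kept under 9 of 14 alternatives. The Sardh probe A_66_P121480 read 29330.1 and 43096, a ratio of 0.80 or 1.74-fold. Sardh stood at percentile 97.7 of all genes and stayed past 1.5-fold under 13 of 14 alternatives. Both enzymes of this step, each read by 1 probe, were thus higher in the knockout pool. Their ratios differed by less than the software's error for a single ratio. The Sardh probe, at chr2:27047412-27047471 on the minus strand, is shown as the only probe that reads this step's last enzyme.
Sardh A_66_P121480: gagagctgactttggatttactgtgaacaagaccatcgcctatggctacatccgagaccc

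In the methionine cycle proper all 3 members passed 1.5-fold as reported, and Mat1a lost it under 2 alternatives. Mat1a, the liver form of methionine adenosyltransferase, makes S-adenosylmethionine. Its probe A_51_P464182, at chr14:41937140-41937199, read 61044 in the WT pool and 86539 in the knockout, a log2 ratio of 0.75 or 1.68-fold. It was 0.55 with quantile scaling and 0.50 without scaling, both short of 1.5-fold. Gnmt, glycine N-methyltransferase, uses S-adenosylmethionine to turn glycine into sarcosine and disposes of its excess. Its probe A_51_P419439 read 100922 and 162179, a ratio of 0.93 or 1.90-fold. Gnmt stood at percentile 98.4 of all genes and, like Ahcy, kept 1.5-fold under all 14 alternatives. The array files place this probe nowhere in the genome. Its sequence is shown so that it can be matched to a transcript.
Gnmt A_51_P419439: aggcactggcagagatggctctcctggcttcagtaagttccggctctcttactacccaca

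Ahcy, S-adenosylhomocysteine hydrolase, clears the product that inhibits methyltransferases. Its probe A_55_P2000938, at chr2:154885047-154885106, read 46805 in the WT pool and 68155 in the knockout, a log2 ratio of 0.79 or 1.73-fold. Its probe A_52_P176160 read 5828 and 10435, a ratio of 1.09 or 2.12-fold. The gene's ratio was 0.94, or 1.91-fold, with an SD of 0.21 over both probes, and 316 genes had a higher ratio. Both probes were higher in the knockout pool before scaling as well, by 1.46-fold and 1.79-fold.

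The array files place A_52_P176160 at chr16:46154729-46154788, and the probe of Gm4737, a protein-coding gene on chromosome 16 in RefSeq, starts 258 bases away at chr16:46154987-46155046. The Gm4737 probe read 4017 in the WT pool and 7230.3 in the knockout, 2.13-fold higher. Which transcripts the Ahcy probe binds was not tested, and its sequence is shown for that reason. Without it the Ahcy ratio was 0.79.
Ahcy A_52_P176160: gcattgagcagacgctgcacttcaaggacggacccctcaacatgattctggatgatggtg

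Gamt, guanidinoacetate methyltransferase, makes creatine and is a large consumer of S-adenosylmethionine. Its probe A_55_P1973259 read 73665 in the WT pool and 74371 in the knockout, and A_55_P1991505 read 55755 and 57826. The log2 ratios were 0.26 and 0.30, and the gene's 0.28, or 1.21-fold, stood at percentile 82.7. The probes share a run of 54 bases, so they are nearly the same measurement. Without scaling the ratio was 0.03, and no alternative brought Gamt to 1.5-fold. Both Gamt probes, 1 Bhmt probe (A_55_P2105180) and 1 Ahcy probe (A_55_P2000938) hold the polyadenylation hexamer AATAAA.

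**Figure D3:**
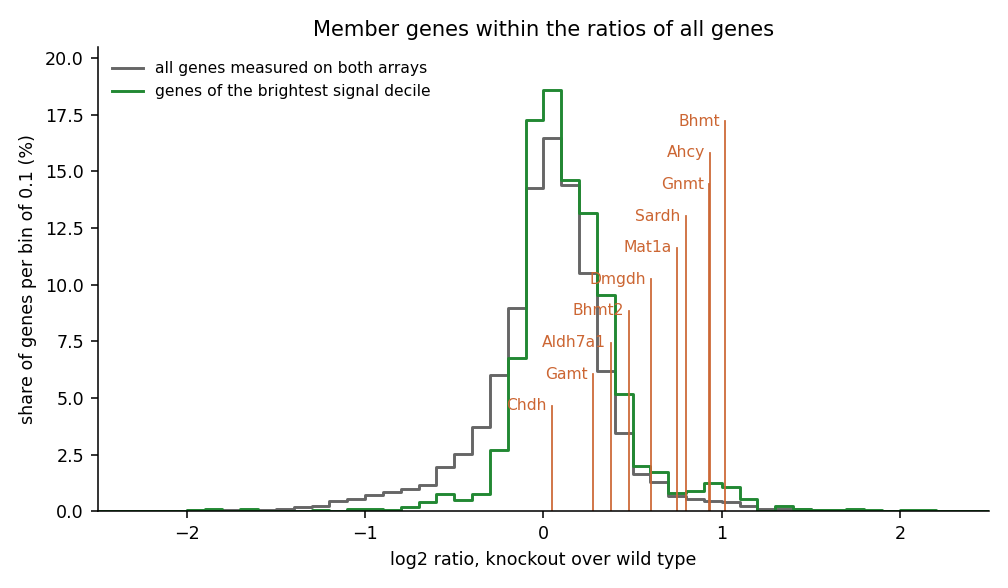
Share of genes (%) per bin of 0.1 in log2 ratio, knockout over wild type, for all 19935 genes measured on both arrays (grey) and for the 1994 genes of the brightest signal decile (green); vertical lines mark the 10 member genes, and their height has no meaning. Chdh lies at the centre of the distribution and Bhmt, Ahcy and Gnmt in its upper tail.

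Ratios varied with signal, and 8 of the 10 members, all but Chdh and Aldh7a1, lay in the brightest of 10 equal groups of genes by mean signal. Aldh7a1 was placed by the midpoint of a bright and a dim probe, 83941 and 60.9 in the WT pool. Its bright probe alone stood at percentile 98.8 of WT signals. The brightest group had the highest median log2 ratio, 0.11, followed by 0.09 in the dimmest group, and the other medians ran from 0.00 to 0.07. In the brightest group 7.27% of genes were at least 1.5-fold higher, 2.36% at least 2-fold higher, 1.25% at least 1.5-fold lower and 0.401% at least 2-fold lower, and 61.7% lay above the median of all genes. Against the median of that group Bhmt was still 0.91 higher on the log2 scale, Ahcy and Gnmt 0.82, Sardh 0.69, Mat1a 0.64, Dmgdh 0.49, Bhmt2 0.37 and Gamt 0.17. The part that signal plays in the members' ratios was not tested beyond these values.

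Bhmt, Bhmt2 and Dmgdh are 3 consecutive genes of chromosome 13 in the RefSeq gene table of GRCm38.p6. Bhmt spans chr13:93616891-93637758 and Bhmt2 chr13:93656097-93674302, both on the minus strand, and Dmgdh spans chr13:93674436-93752823 on the plus strand. Bhmt2 and Dmgdh run away from each other from starts with 133 bases between them. Their log2 ratios, 0.48 and 0.61, differed by less than the software's error of a single ratio, while Bhmt, 18338 bases beyond Bhmt2, had 1.02. The other members lie on chromosomes 2 (Ahcy, Sardh), 10 (Gamt), 14 (Chdh, Mat1a), 17 (Gnmt) and 18 (Aldh7a1).

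The stretch between the starts of Bhmt2 and Dmgdh and the 250 bases before the starts of Bhmt and Ahcy, first and second in the reported order (Ahcy only with its chromosome 16 probe), are given from RefSeq, GRCm38.p6. Capitals mark matches, on either strand, to CCAAT, to GGGCGG, a letter string bound by Sp1, and to AGGTCA, the core bound by many nuclear receptors. AGGTCA was added after the Bhmt sequence had been read. No match overlaps another. Coordinates are chr13:93637759-93638008 (minus strand) for Bhmt, chr2:155074498-155074747 (minus) for Ahcy and chr13:93674303-93674435 (plus, from Bhmt2 toward Dmgdh) for the shared stretch.
Bhmt: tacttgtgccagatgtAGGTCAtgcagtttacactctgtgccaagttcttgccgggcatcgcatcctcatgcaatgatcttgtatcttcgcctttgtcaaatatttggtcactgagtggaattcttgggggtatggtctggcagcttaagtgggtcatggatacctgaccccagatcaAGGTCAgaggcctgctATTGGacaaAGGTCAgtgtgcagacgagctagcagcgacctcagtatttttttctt
Ahcy: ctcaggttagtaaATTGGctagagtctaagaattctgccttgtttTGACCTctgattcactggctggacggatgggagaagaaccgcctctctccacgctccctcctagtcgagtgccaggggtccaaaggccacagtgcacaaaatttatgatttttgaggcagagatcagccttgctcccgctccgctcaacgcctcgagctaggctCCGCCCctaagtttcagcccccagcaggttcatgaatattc
Bhmt2 and Dmgdh: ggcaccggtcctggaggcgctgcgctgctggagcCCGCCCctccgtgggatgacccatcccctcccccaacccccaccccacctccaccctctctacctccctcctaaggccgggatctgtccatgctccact

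AGGTCA or its reverse complement began 234, 72 and 47 bases before the Bhmt start, and a CCAAT box on the reverse strand began 56 bases before it. In the Ahcy stretch a CCAAT box began 237, AGGTCA 205 and GGGCGG 41 bases before the start. The Bhmt2 and Dmgdh stretch held GGGCGG and was 69.9% G and C, against 48% for Bhmt and 52.8% for Ahcy. RefSeq windows from 250 bases before to just past the start were held for 8 of the 10 genes, and Mat1a and Aldh7a1 had no entry. AGGTCA was in windows of 4 of these genes (Bhmt, Sardh, Gnmt and Ahcy) and in 16.3% of all 32851 windows. CCAAT was in 3 (Bhmt, Gnmt and Ahcy) and in 37.4% of all windows. GGGCGG was in 5 (Chdh, Bhmt2, Dmgdh, Ahcy and Gamt) and in 35.7%. These counts are of genes, while the shares are of windows, of which the 8 genes have 10. The Bhmt2 and Dmgdh windows overlap and hold the same GGGCGG of the shared stretch.

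Other strings were searched in the same windows. TATAAA (13.6% of all windows), CACGTG (7.15%), TGACGTCA (1.79%), TGTTTAC (3.65%), CAAAGTCCA (0.475%), TTGCGCAA (0.183%) and the HNF1 motif (0.00913%) had no match in the members' windows, and AGAACA (19.0%) matched in Chdh alone. These are matches of letters and not binding sites.

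The rest of the pathway was taken as 45 further genes in 7 roles, of which 43 were measured. Their median log2 ratio was 0.16, and 2 were at least 2-fold higher and none 2-fold lower. At 1.5-fold 6 were higher and 1 lower. Of all genes 1.29% were 2-fold higher and 1.85% lower, and 4.41% were 1.5-fold higher and 5.93% lower. In the brightest group of genes 2.36% were 2-fold higher and 7.27% were 1.5-fold higher. The 2 genes past 2-fold were Cth and Nnmt. The list was chosen with earlier results of these data known, and no difference from these shares was tested. Slc44a4 and Coq3 were not well above background on either array.

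The 8 measured genes of choline uptake and first use had a median of 0.04, at the median of all genes. The largest ratio among them was that of Slc25a48, a mitochondrial carrier linked to choline import. Its signal was 190 in the WT pool and 247 in the knockout, 1.54-fold higher after scaling. The list also holds the choline kinases Chka (-0.08) and Chkb (0.12), so its median is not that of steps toward betaine alone. The flavoprotein genes that accept electrons from Dmgdh and Sardh, with the peroxisomal sarcosine oxidase Pipox, had ratios from 0.14 to 0.42. Pipox was the highest of these 4, reading 43265 and 48785.

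Of 10 other genes of the methionine cycle none reached 1.5-fold, and their median was 0.04. Mtr, the folate-dependent methionine synthase that runs parallel to Bhmt, had a ratio of -0.02. Mat2a, a second methionine adenosyltransferase gene, had 0.06, with 2 probes well above background on both arrays. The largest was Adk, adenosine kinase, which removes the adenosine that Ahcy releases, at 0.53. Adk was above the members Bhmt2, Aldh7a1, Gamt and Chdh and below the other 6. No difference between these groups of genes was tested.

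Homocysteine leaves the cycle through Cbs and Cth, the transsulfuration enzymes. Cth was 2.27-fold higher in the knockout pool and Cbs 1.20-fold. Among 9 measured methyltransferases of small molecules, Nnmt, which methylates nicotinamide, read 4672 in the WT pool and 15899.8 in the knockout, 4.03-fold higher. Pemt, which makes phosphatidylcholine by methylation, had a log2 ratio of 0.20.

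Gatm, which makes the guanidinoacetate that Gamt methylates, read 551 in the WT pool and 269.8 in the knockout, 1.72-fold lower after scaling. The step before Gamt and Gamt itself therefore lay on opposite sides of 0. Of 8 genes of glycine and serine use, Gldc, the decarboxylase of the glycine cleavage system, was highest at 1.71-fold, reading 7885 and 11376. Without scaling 1 gene of the 43 was 2-fold higher and 1 was 2-fold lower.

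**Figure D4:**
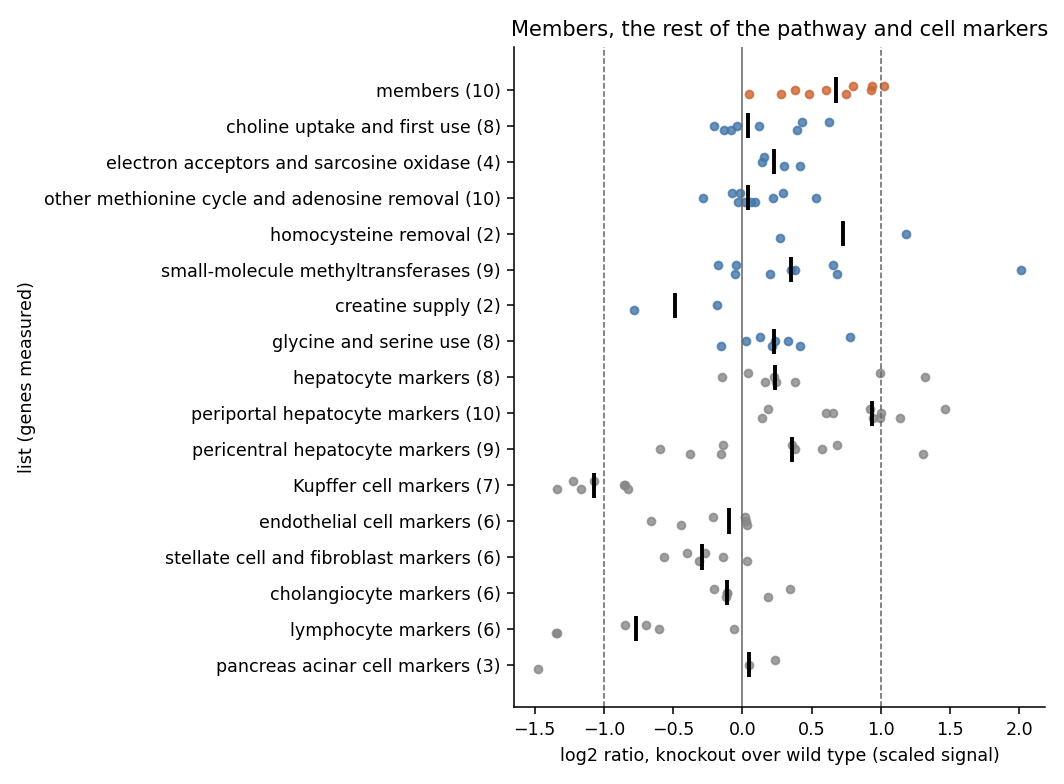
Log2 ratio of scaled signal, knockout over wild type, for each measured gene of the member group (orange), of the other roles of the pathway (blue) and of the cell marker lists (grey), with black bars at list medians, dashed lines at 2-fold and the number of genes in brackets. The member median of 0.68 lies between the medians of the hepatocyte (0.24) and periportal (0.93) lists, and the Kupffer cell list has the lowest median, -1.07.

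Liver identity was checked with 8 hepatocyte markers, all measured, with a median log2 ratio of 0.24. Alb had 0.24, Ttr 0.16, Hnf4a 0.23 and Apoa1 -0.15, while Tat (1.32) and Cps1 (0.99) were the highest. The list's summed scaled signal was 943 in the WT pool and 1159.5 in the knockout (units of each array's 75th percentile). The members' median was thus above that of the hepatocyte list, a difference that was not tested.

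Among markers of other cells, those of Kupffer cells and lymphocytes were lower in the knockout pool. The 7 Kupffer cell markers all fell short of WT by 1.5-fold or more, 4 of them by 2-fold or more, and their summed scaled signal was 77.7 in the WT pool and 35.9 in the knockout. Of 6 lymphocyte markers 5 were at least 1.5-fold lower, with sums of 1.99 and 1.48. Probes disagreed for the Kupffer cell marker Csf1r, with log2 ratios from -0.96 to -0.17. They also disagreed for the lymphocyte marker Nkg7, from -1.35 to -0.04. The sums of the remaining non-hepatocyte lists differed less. Endothelial sums were 44.3 and 40.2, stellate cell and fibroblast sums 45.6 and 45.9, and cholangiocyte sums 0.995 and 0.945. A sum is led by its brightest genes, and the median log2 ratios of these lists were -0.10, -0.29 and -0.11. None of the 6 endothelial and 6 stellate cell and fibroblast markers exceeded the median of all genes. The lowest of them were Lyve1, 1.58-fold lower, and Col1a1, 1.48-fold lower. Of the 6 pancreatic acinar markers 3 were measured, with sums of 0.468 and 0.495. Cela1 read 72.9 in the WT pool and 22.2 in the knockout, 2.77-fold lower after scaling. Cela2a and Ctrb1, the brightest of the 3, had log2 ratios of 0.05 and 0.23. Pnlip was not well above background on either array, and Cpa1 and Cpb1 only in the wild type. In RNA of whole tissue, fewer cells of a type and less RNA per cell cannot be told apart.

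Hepatocyte zone markers varied within each list. All 10 periportal markers had ratios above the median of all genes, with a list median of 0.93 and sums of 523 and 844. They ran from 0.14 for Cyp2f2 and 0.18 for Hsd17b13 to 1.46 for Sds. The 9 pericentral markers had a median of 0.36, from -0.59 for Tbx3 to 1.31 for Oat, and sums of 247 and 322. Of these 5 were above 0, while Glul (-0.16), Lgr5 (-0.14) and Axin2 (-0.38) lay below it with Tbx3. Cps1 and Cyp2e1 are in the hepatocyte list as well. The part of cell makeup or zone in the members' ratios was not tested.

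**Figure D5:**
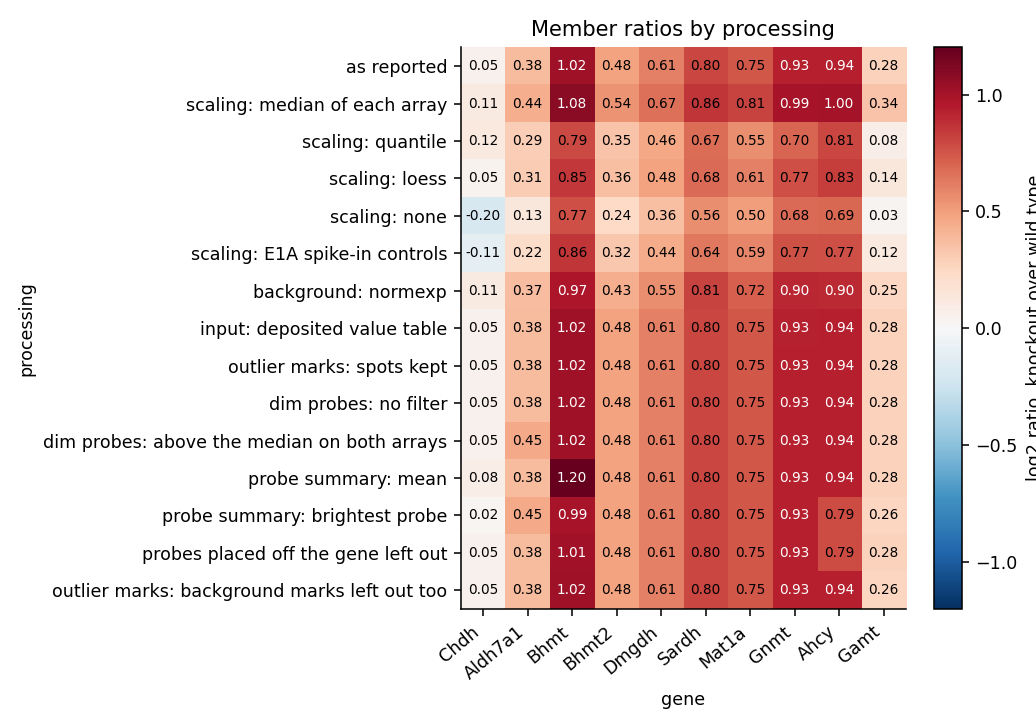
Log2 ratio, knockout over wild type, of each member gene (columns) under the reported processing (top) and each of 14 alternatives (rows below), with the value in each cell and red for higher in the knockout pool. Chdh is below 0 without scaling (-0.20) and with the spike-in scale (-0.11), and the other 9 genes are above 0 in every row. The median of all genes, not drawn, is below 0 only without scaling and with the spike-in scale.

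Under all 14 alternatives, 9 of the 10 members stayed above 0 and above the median of all genes. The median of all genes was itself above 0 except without scaling (-0.21) and with spike-ins (-0.12). Chdh was above 0 under 12 and above that median under 12, with different exceptions: no scaling and spike-ins for 0, no dim filter and the brightest probe for the median. Aldh7a1 ranged from 0.13 to 0.45, Bhmt2 from 0.24 to 0.54, Dmgdh from 0.36 to 0.67, Sardh from 0.56 to 0.86 and Mat1a from 0.50 to 0.81. Gnmt ranged from 0.68 to 0.99 and Ahcy from 0.69 upward, neither reaching 2-fold under any of them, and Gamt ranged from 0.03 to 0.34.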

How the data were processed

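Liver RNA was measured on 2 single-colour (Cy3) Agilent arrays. Per the labels' protocols, RNA was column-purified and 200 ng was amplified and labelled. The submitters' processing notes name Agilent Feature Extraction 11.5.1.1 as the scanner software, and the deposited files give its spot intensity on a linear scale, background-subtracted. The deposited value table holds the same intensity divided by 1207.25 (wild type) and 1018.65 (knockout); its medians were 0.0874 and 0.0838. It is linear and not centred, and no source used here states why the authors chose that divisor. Per-sample columns left unused numbered 0.

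Samples were grouped by the labelled genotype. The log2 of each processed signal was lowered by that of its array's 75th percentile (control spots excluded). Control spots and spots with an outlier mark (119 and 170) were left out. Spots of a probe were averaged, and measured probes of a gene were summarised by their median ratio. Non-member probes were named by RefSeq accession (28330) or name (2378), or kept the file's name (8721). All members were named, and of other pathway genes, per role, those past 2-fold, or else the largest ratio; Mtr, Mat2a, Cbs, Pemt, Gm4737 and the clone probe were added after their values were seen. The members, lists and alternatives were chosen with earlier results of these data known. The steps were tested on simulated data. Python 3.11.15, pandas 2.3.3, numpy 2.4.6, statsmodels 0.14.6 (loess, span 0.3) and limma 3.58.1 (normexp, offset 50) were used. Precision is limited by the number of arrays.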

Additional observations from a re-analysis of the deposited data

How the results depend on the processing

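No paired analysis was possible because each group has 1 array, and no replicate could be left out. The count of members at least 2-fold higher, 1 as reported (Bhmt), was 0 with quantile, loess, spike-in or no scaling, with the normexp background and by the brightest probe. The count at 1.5-fold, 6 as reported, was 3 without scaling and from 4 to 6 under the other alternatives. The median log2 ratio of the members, 0.68, was 0.51 with quantile scaling, 0.54 with loess, 0.43 without scaling and 0.51 with the 8 E1A spike-in probes as the scale. Without scaling the median of all genes was -0.21 and with the spike-ins -0.12, in place of 0.04; both scalings shift every gene by a constant. The members' median minus that of all genes, 0.64 as reported, was 0.48 with quantile scaling, 0.54 with loess and 0.56 with normexp. At 2-fold 1.29% of all genes were higher and 1.85% lower as reported, 0.577% and 3.80% without scaling, 0.692% and 3.05% with spike-ins, and 0.677% and 0.642% with normexp. Leaving out probes placed off their gene, and spots with a mark on their local background, were alternatives chosen after seeing the data. The cause of these shifts was not tested. Chdh and Aldh7a1 each have a dim probe, and with dim probes left out Aldh7a1 was 0.45 in place of 0.38. With 1 array per group the spread between pools is unknown.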

Other observations

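In both member genes with a probe placed on another chromosome, that probe had the highest ratio of the gene: 3.01-fold against 1.99-fold and 2.03-fold for Bhmt, and 2.12-fold against 1.73-fold for Ahcy. These values were noticed after the data were seen.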
